A study of Mus musculus with 40 samples.

Results

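The comparison described here set the cerebellum of 29-month-old Ttpa-/- mice on the vitamin E-supplemented diet (600 mg of α-tocopherol/kg) against the cerebellum of 29-month-old wild-type (WT) mice on the normal diet (36 mg of α-tocopherol/kg). The members were chosen by genotype, diet, age and region as the sample labels give them, and they are 8 of the 40 arrays of the series, 4 in each group. C57Bl/6 is the only mouse strain that the study names, and the paper does not state the backcross of the Ttpa-/- line. Each array was hybridized with RNA of 1 mouse. The Ttpa-/- mice differed from the WT mice in their diet as well as in their genotype, so both were compared together. The other arrays of the series hold the same region on the vitamin E-deficient diet in both genotypes (29-month-old WT and Ttpa-/- mice), the cerebellum of 2-month-old WT mice, and the cerebral cortex of the same 5 kinds of mice. The comparison asks how far the cerebellum of a mouse without Ttpa differs from that of a WT mouse of the same age when the diet is rich in vitamin E.

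Ttpa encodes the α-tocopherol transfer protein, which in the liver loads α-tocopherol, the main form of vitamin E, for export into the blood. α-Tocopherol is a lipid-soluble antioxidant that interrupts the peroxidation of membrane lipids. Loss of the protein causes vitamin E deficiency with ataxia in humans and mice, and the cerebellum, the region that coordinates movement through Purkinje cells and granule cells, is one of the regions affected. A diet rich in α-tocopherol is the usual way to raise vitamin E levels when the transfer protein is lacking.

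A signal in what follows is the log2 of a probe's intensity minus the log2 of the 75th percentile of its array, so that 0 is the level of the 75th percentile and a difference of 1 is 2-fold. Values for 4 arrays are given in the order of replicates 1 to 4. On the 8 arrays the 75th percentile ranged from 497 to 925 intensity units, and the scanner software marked 56.3% to 61.4% of the probes as well above background. The WT arrays lay on one slide and the supplemented Ttpa-/- arrays on another, so slide and genotype cannot be told apart. A deficient-diet comparison, Ttpa-/- mice against WT mice, shares no array with this one but lies on the same pair of slides. In that comparison, replicate 4 of the deficient Ttpa-/- mice stood apart at genes of chromosome 4, and for the genes named there the difference is given with and without it. WT replicates 1 and 3 held the highest signals of the bone protein gene Bglap2 and of an immunoglobulin transcript, and counts are also given without them.

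The cerebellar origin of the arrays was clear from their markers. All 18 Purkinje cell markers and all 14 granule cell markers examined were tested, and Pcp2, a Purkinje cell protein, had a mean signal of 7.90 in the WT group. Of 9 forebrain markers 5 were above background, while the transcription factor Emx1 was not. Of 13 brainstem markers 4 were bright enough to be tested, while the noradrenergic markers Dbh and Slc6a2 were at background. In whole tissue, fewer cells of a type and less RNA per cell cannot be told apart.

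A few probe sequences show what the data of this comparison rest on. The first is the probe with the largest difference of all, for which the files give neither a gene nor a position. The second is the probe with the smallest adjusted p shown here, at chr14:39772023-39772082 on the forward strand (mm9). The third, at chr6:67171313-67171372 on the reverse strand, measures a long intergenic noncoding RNA (lincRNA) with the region chr6:67155508-67216941. Each is 60 bases long and written 5′ to 3′.

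A_55_P2026836: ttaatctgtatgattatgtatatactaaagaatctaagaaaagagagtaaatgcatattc
A_55_P2424060: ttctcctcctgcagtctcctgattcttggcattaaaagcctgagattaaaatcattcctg
lincRNA of chromosome 6: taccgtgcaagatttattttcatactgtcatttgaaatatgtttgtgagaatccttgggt

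The next 3 are lincRNA probes that were higher in supplemented Ttpa-/- cerebellum. They are shown because they hold the word CTTCC, in capitals, which was more frequent among probes with a higher signal, as described with the base content. They lie at chr4:89050233-89050292 (forward strand), chr6:86477397-86477456 (reverse strand) and chr14:65729802-65729861 (forward strand).

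lincRNA of chromosome 4: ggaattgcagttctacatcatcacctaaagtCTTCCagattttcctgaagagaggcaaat
lincRNA of chromosome 6, second region: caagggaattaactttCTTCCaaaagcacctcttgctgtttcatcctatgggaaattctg
lincRNA of chromosome 14: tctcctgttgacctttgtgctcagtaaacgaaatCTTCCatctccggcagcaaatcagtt

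Supplemented Ttpa-/- cerebellum differed from WT cerebellum in the signal of 1535 of 31265 tested probes, or 4.91%. The signal was higher in Ttpa-/- mice for 1045 probes (3.34%), called up-regulated, and lower for 490 (1.57%), called down-regulated. The up-regulated probes with a gene symbol stood for 334 genes and the down-regulated ones for 372. A probe was called when the adjusted p of limma, with Benjamini-Hochberg adjustment over the tested probes, was under 0.05 and the fold change was over 1.5. A probe was tested when either group had it well above background on each of its 4 arrays. The median difference of the called probes was 0.76 on the log2 scale among the up-regulated and -0.92 among the down-regulated, and 245 and 214 probes differed by 2-fold or more. All arrays of one group were above all of the other in 1252 of the called probes (824 up-regulated, 428 down-regulated), against 21.3% of the tested probes, 9.32% in the up and 12% in the down direction. For 45 up-regulated probes no WT array was above background, and for 21 down-regulated probes no Ttpa-/- array was, so that only a lower bound of their fold change can be given, which lies under the fitted value. With these probes at their bounds the medians were 0.74 and -0.90, and 216 and 205 probes differed by 2-fold or more. Without WT replicates 1 and 3, 388 probes were up-regulated and 72 down-regulated.

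Ttpa itself was down-regulated. Its probe at chr4:19957856-19957915 had signals of -3.02, -3.62, -3.23 and -3.48 in the WT arrays and of -6.47, -5.98, -5.00 and -5.23 in the supplemented Ttpa-/- arrays. The groups did not overlap, and the probe was well above background on 4 WT arrays and on 1 Ttpa-/- array. The fall was 5.04-fold (log2 difference -2.33, SE 0.34, adjusted p = 3.58e-05 by limma). In the deficient-diet comparison no Ttpa-/- array was above background, and the WT arrays were at least 1.95-fold higher (adjusted p = 5.06e-07, and 1.13e-06 without Ttpa-/- replicate 4). The other Ttpa probe on the arrays stayed at background in both groups.

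Other large falls with little spread among arrays were found on chromosome 4. Car8, whose product is an inactive relative of the carbonic anhydrases that binds the IP3 receptor of Purkinje cells, had signals of 4.79, 4.68, 4.59 and 4.68 in the WT arrays and of 1.67, 1.87, 1.76 and 1.88 in the supplemented Ttpa-/- arrays. All 4 Ttpa-/- arrays thus lay well below all WT arrays, and the fall was 7.42-fold (log2 difference -2.89, SE 0.48, adjusted p = 0.000165 by limma). A second Car8 probe differed by -2.87 (adjusted p = 1.96e-06). Car8 on the deficient diet was 4.12, 4.11, 4.40 and 4.90 in WT cerebellum and 1.56, 1.44, 1.77 and 3.65 in Ttpa-/- cerebellum. Here replicate 4 of the deficient Ttpa-/- mice lay nearer to the WT arrays than to the other Ttpa-/- arrays. The deficient-diet difference was -2.27 with this array (adjusted p = 0.00182) and -2.79 without it. In the cortex, Car8 was above background on all WT arrays and on no supplemented Ttpa-/- array, and WT mice were at least 4.05-fold higher (adjusted p = 0.000338). Car8 and the unnamed probe A_55_P2424060 were the only ones called in the cerebellum on both diets and in the cortex of the supplemented mice.

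4930412C18Rik, a RIKEN clone whose role is not known, had signals of -2.12, -2.15, -2.34 and -2.30 in the WT arrays and of -5.54, -5.02, -4.72 and -5.19 in the supplemented Ttpa-/- arrays. Necab1, which encodes a neuronal EF-hand calcium-binding protein, had signals of -2.62, -2.56, -2.10 and -2.61 in WT and of -4.87, -5.70, -4.54 and -4.16 in supplemented Ttpa-/- cerebellum. In neither gene did the groups overlap. The fall of 4930412C18Rik was 7.41-fold (log2 difference -2.89, SE 0.44, adjusted p = 6.61e-05), and that of Necab1 was 5.08-fold (-2.34, SE 0.34, adjusted p = 3.35e-05). 4930412C18Rik was above background on 4 WT arrays and on 1 supplemented Ttpa-/- array, and Necab1 on 4 and 3. These folds are thus fitted values that rest in part on signals at background. Over the alternative settings the differences ran from -3.02 to -1.36 for 4930412C18Rik and from -2.56 to -1.06 for Necab1. On the deficient diet 1 Ttpa-/- array was above background in each gene. Deficient Ttpa-/- replicate 4 had a signal of -3.07 for 4930412C18Rik and of -3.02 for Necab1, while the other deficient Ttpa-/- arrays were at -5.25 or below in both. The deficient-diet difference was -2.52 for 4930412C18Rik (adjusted p = 0.000315) and -3.26 without this array, and it was -2.14 for Necab1 (adjusted p = 9.04e-05) and -2.76 without it. For Ttpa, this array had a signal of -6.34 and was not above background. The cause of its position was not tested.

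Klhl32, a member of the kelch-like family of ubiquitin ligase adaptors, changed less but with a smaller error. Its signals were 2.77, 2.89, 2.87 and 2.87 in the WT arrays and 2.02, 1.84, 2.09 and 2.06 in the supplemented Ttpa-/- arrays. The groups were far apart for their spread, and the fall was 1.80-fold (log2 difference -0.85, SE 0.08, adjusted p = 8.96e-09). On the deficient diet it was -0.82 (adjusted p = 9.8e-09) and -0.89 without Ttpa-/- replicate 4, and in the cortex -0.57 (adjusted p = 0.00022), which is below the fold threshold. A dimmer Klhl32 probe differed by -0.48 (adjusted p = 0.044) and was not called. Atp6v0d2, a subunit of the vacuolar proton pump whose gene lies 0.15 Mb from Ttpa, was near background: no Ttpa-/- array was above it, the WT mice were at least 1.68-fold higher, and the adjusted p was 0.0498. That call was lost in 14 of 18 alternative settings.

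**Figure D1:**
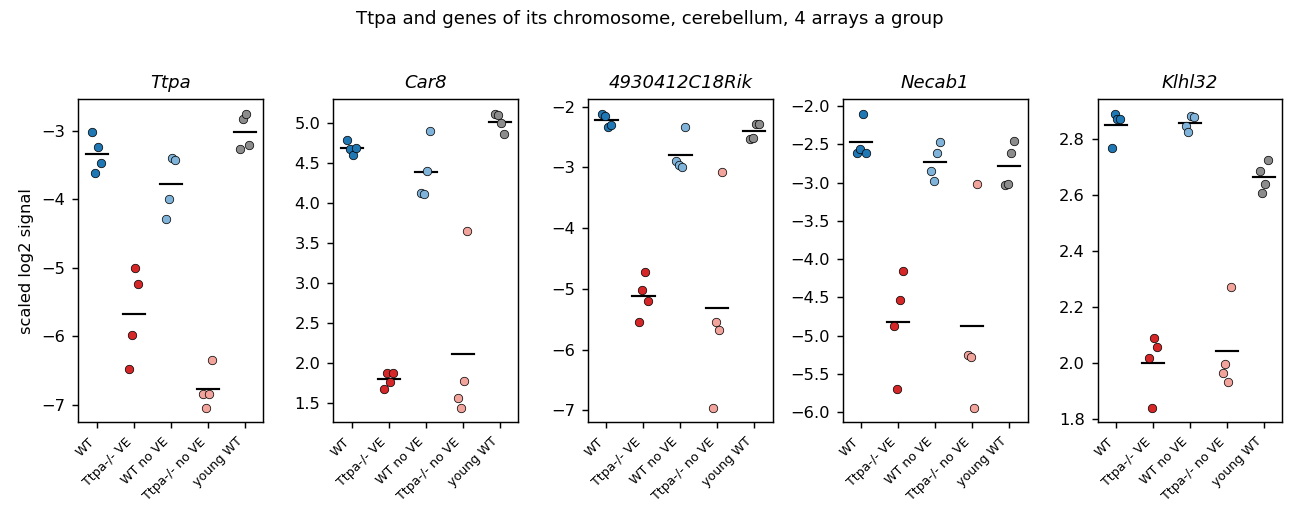
Signals (log2 relative to the array's 75th percentile) of Ttpa, Car8, 4930412C18Rik, Necab1 and Klhl32 in the 5 cerebellar groups, with a point for each of 4 arrays and a bar at the mean; WT is the normal diet, VE the supplemented diet, no VE the deficient diet and young WT 2 months of age. The supplemented Ttpa-/- arrays lie below all WT arrays in each gene, and 1 deficient Ttpa-/- array lies near the WT arrays for Car8, 4930412C18Rik and Necab1.

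Counted by distance, 4 of the 61 tested probes within 5 Mb of Ttpa were down-regulated and 0 were up-regulated. These were Ttpa, Atp6v0d2, Klhl32 and a lincRNA. Within 10 Mb, 5 of 129 tested probes (3.88%) were down-regulated, against 1.57% of all tested probes, and 1 was up-regulated. Within 20 Mb, 10 of 241 (4.15%) were down-regulated and 4 (1.66%, against 3.34% of all tested probes) were up-regulated. Of these, 6 of the 10 were also down-regulated on the deficient diet, among them Ttpa and both Car8 probes, and 2 of the 4 were also up-regulated there. Of all probes tested on that diet, 1.92% were down-regulated and 3.02% up-regulated. Car8 lies 11.9 Mb from Ttpa, 4930412C18Rik 10.2 Mb, Necab1 5.08 Mb and Klhl32 4.59 Mb. Most probes in between were not called, and the median difference within 10 Mb was -0.06. On the whole of chromosome 4, 64 of 2024 tested probes were up-regulated and 27 were down-regulated. Farther along chromosome 4, Gm1987 had signals of -4.08, -3.99, -4.45 and 0.14 in deficient Ttpa-/- cerebellum, while its difference in the supplemented comparison was 0.37 (adjusted p = 0.785).

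**Figure D2:**
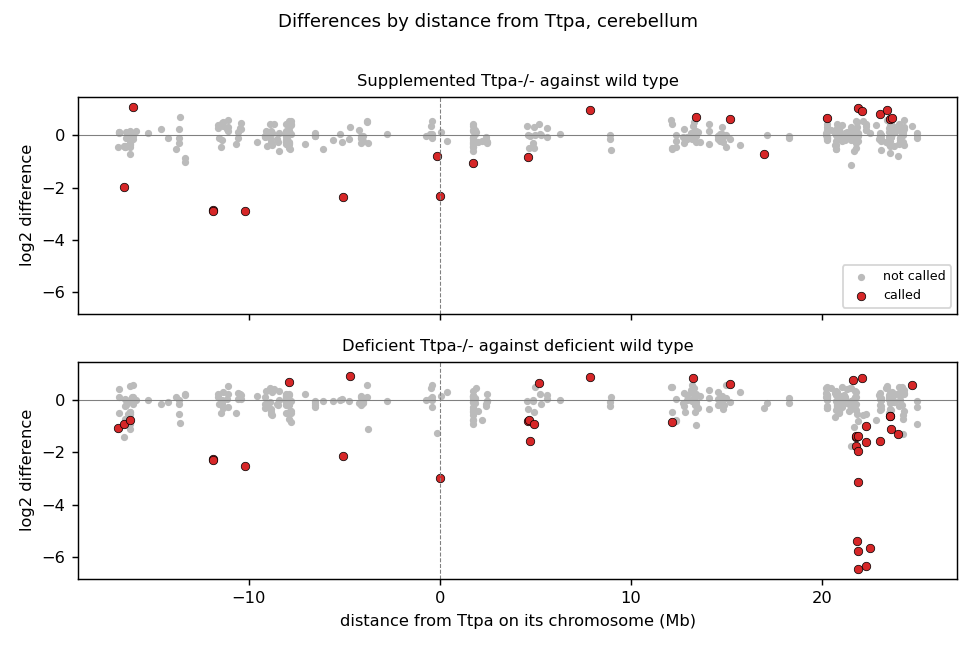
Log2 difference of the probes tested in the supplemented comparison against their distance from Ttpa in Mb, in the supplemented comparison (upper panel) and in the deficient comparison (lower panel), with called probes in red and the others in grey. Ttpa, Necab1, 4930412C18Rik and both Car8 probes lie at fitted differences of -2.14 to -2.98 in both panels, with deficient Ttpa-/- replicate 4 included, and a group of probes more than 20 Mb from Ttpa falls in the lower panel only.

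Most up-regulated probes did not measure a named gene. Of the 5805 tested lincRNA probes, 472 (8.13%) were up-regulated and 45 (0.775%) were down-regulated. Among the 20375 tested probes with a gene symbol, 339 (1.66%) were up-regulated and 392 (1.92%) were down-regulated, and among the 5085 other probes 234 (4.60%) and 53 (1.04%). The excess of higher over lower signals thus lay in lincRNA and unnamed probes. In 4 equal bins of signal level, from the dimmest, 6.95%, 9.73%, 10% and 6% of lincRNA probes were up-regulated, and 4.48%, 2.48%, 1.002% and 0.196% of probes with a gene symbol. The share of up-regulated lincRNA probes depended on the processing. It was 4.88% with median scaling, 3.01% with normexp background correction and 2.89% without WT replicates 1 and 3, and it was above the share among gene symbols in each (0.844%, 0.618% and 0.561%).

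A_55_P2026836, the probe with the largest difference, had signals of -6.92, -6.90, -7.05 and -6.86 in the WT arrays and of -1.86, -2.21, -2.16 and -1.63 in the supplemented Ttpa-/- arrays. It was above background on no WT array and on all Ttpa-/- arrays, which is at least 8.42-fold higher (adjusted p = 1.02e-09 by limma). Its signals on the deficient diet were -6.27, -6.58, -6.70 and -6.98 in WT and -1.72, -2.14, -1.76 and -2.79 in Ttpa-/- cerebellum. The unnamed probe A_55_P2424060 on chromosome 14 had signals of -2.06, -2.19, -2.13 and -2.14 in WT and of -0.08, -0.01, -0.40 and -0.14 in supplemented Ttpa-/- arrays. Its groups were far apart for their spread, with a log2 difference of 1.97 (SE 0.12, adjusted p = 7.95e-13). It was 2.20 on the deficient diet and 1.04 in the cortex, and called in both.

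The lincRNA of chromosome 6 shown first had signals of -2.81, -4.97, -5.13 and -4.92 in WT and of -1.93, -2.09, -2.39 and -2.07 in supplemented Ttpa-/- cerebellum, with WT replicate 1 well above the other WT arrays. Its difference was 2.34 (adjusted p = 0.00193) and was 2.54 on the deficient diet. The 3 lincRNA probes printed with the word CTTCC differed by 2.19 (chromosome 4, adjusted p = 0.00116), 1.68 (chromosome 6, adjusted p = 2.02e-05) and 1.53 (chromosome 14, adjusted p = 0.00409). The same probes differed on the deficient diet by 1.33, 0.89 and 1.18.

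The up-regulated probes shared a feature of their sequence. Of 1024 words of 5 letters counted in the 60-base probes, CTTCC gained most among up-regulated probes over all tested probes, and it was singled out after its counts were seen. It was present in 23.6% of up-regulated, 7.55% of down-regulated and 9.52% of all tested probes. Its reverse complement, GGAAG, was present in 4.40% of up-regulated and in 8.59% of all tested probes and gained least of all words. The gain was found in each class of probes: CTTCC was present in 22.1% of up-regulated against 8.17% of tested probes with a gene symbol, in 26.3% against 14.1% of lincRNA probes and in 20.5% against 9.68% of the others. The median share of C plus T was 55% in up-regulated, 48.3% in down-regulated and 50% in tested probes. In 5 bins of C plus T content, from the lowest, 5.34%, 4.56%, 7.28%, 8.70% and 13.2% of lincRNA probes were up-regulated, and 1.07%, 1.07%, 1.37%, 2.09% and 3.65% of probes with a gene symbol. Probes up-regulated on the deficient diet held CTTCC in 23.4%. The part of base content in the higher signals was not tested.

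**Figure D3:**
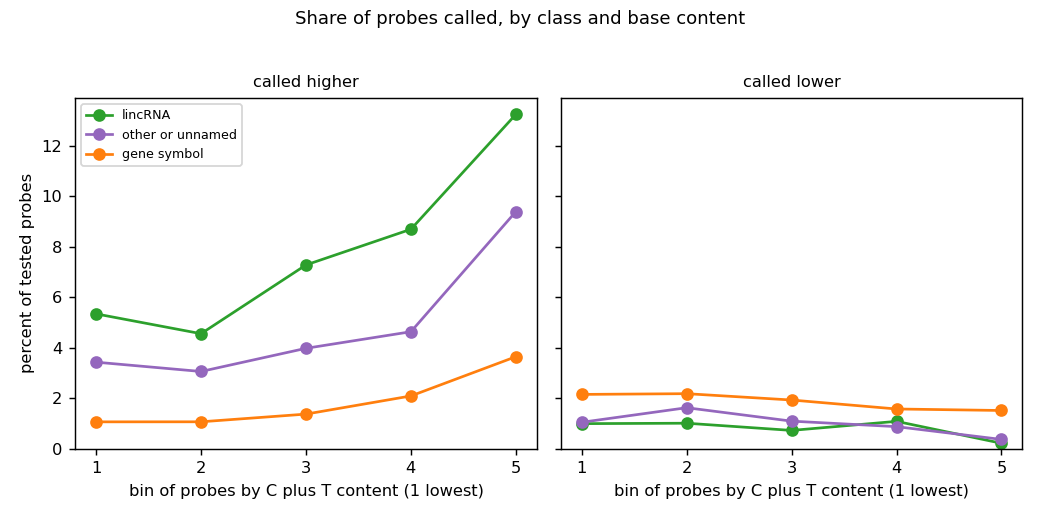
Percent of tested probes called higher (left) and lower (right) in supplemented Ttpa-/- cerebellum, by bin of C plus T content from the lowest (1) to the highest (5), with a line for each class of probes. The share called higher was greatest in the highest bin of each class, 13.2% for lincRNA probes and 3.65% for probes with a gene symbol.

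Chemosensory receptors and hair proteins, which brain tissue is not known for, were among the up-regulated symbols. Of 93 tested probes for odorant receptors (Olfr), 18 (19.4%) were up-regulated and 0 were down-regulated, with a median difference of 0.40, against 1.66% of all tested probes with a gene symbol and 4.48% of the dimmest of them up-regulated. Vomeronasal receptors were up-regulated in 7 of 24 probes (29.2%) and hair keratin-associated proteins (Krtap) in 6 of 24 (25%). These families were looked at after their members were seen among the largest rises, and their median signals were low, at -3.62, -3.05 and -1.67. In the deficient-diet comparison, 17, 2 and 4 probes of the same families were up-regulated and 1, 1 and 0 were down-regulated. There, 3.02% of the tested probes of all classes together were up-regulated and 1.92% were down-regulated.

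The 10 genes with the largest rise among called symbols whose groups did not overlap were Bex6, Olfr1173, Krtap3-3, 1700013N18Rik, Abhd3, Cox17, Barhl2, Snrpc, Lyar and 4933415F23Rik. Their differences ran from 1.68 to 2.33, and all had signals below 0. The first was Bex6, of the brain-expressed X-linked family, with signals of -6.81, -7.17, -5.35 and -7.11 in WT and of -4.35, -4.30, -4.56 and -3.91 in supplemented Ttpa-/- cerebellum. It was above background on no WT array and at least 1.69-fold higher in Ttpa-/- mice (adjusted p = 1.05e-07), and at least 2.18-fold higher on the deficient diet. Olfr1173, an odorant receptor, had signals of -3.09, -3.08, -3.10 and -2.21 in WT and of -0.45, -0.04, -1.78 and -0.68 in Ttpa-/- arrays. The rise was 4.38-fold (log2 difference 2.13, SE 0.38, adjusted p = 0.000382), and 1.62 on the log2 scale on the deficient diet.

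Cox17, a copper chaperone needed to assemble cytochrome c oxidase, had signals of -3.80, -4.30, -4.15 and -3.90 in WT and of -2.34, -2.40, -2.45 and -1.75 in supplemented Ttpa-/- cerebellum. The rise was 3.49-fold (log2 difference 1.80, SE 0.23, adjusted p = 4.85e-06), although another probe of the gene was at background. Barhl2, a homeobox transcription factor of neuronal subtypes, had signals of -3.64, -4.32, -4.17 and -3.97 in WT and of -2.18, -2.37, -2.27 and -2.13 in Ttpa-/- arrays. Its rise was 3.45-fold (1.79, SE 0.19, adjusted p = 1.1e-07). The deficient-diet arrays were also apart, at -3.49, -3.78, -3.91 and -3.12 in WT and at -1.81, -1.71, -2.20 and -2.03 in Ttpa-/- cerebellum. Abhd3, a phospholipid hydrolase, was at least 2.51-fold higher in Ttpa-/- cerebellum (adjusted p = 2.11e-05), and Krtap3-3 at least 1.51-fold (adjusted p = 0.00132). For Snrpc, a component of the U1 splicing particle, the probe that rose by 1.73 (adjusted p = 0.00734) was not the brightest of the gene, which differed by -0.16 (adjusted p = 0.19). Of the 10 genes, Olfr1173, Cox17 and Barhl2 kept their call with normexp background correction and the other 7 lost it.

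Among genes of higher signal the rises were fewer. A mean signal above 0 over the 8 arrays was used to single out 10986 bright probes with a gene symbol, a limit set after the data were seen, and 66 of them (0.601%) were up-regulated and 72 (0.655%) down-regulated. Gm9372, a predicted gene on chromosome 3, had signals of 0.69, 0.52, 0.73 and 0.79 in WT and of 2.01, 2.17, 2.14 and 2.06 in supplemented Ttpa-/- cerebellum. Its groups were far apart for their spread (log2 difference 1.41, SE 0.11, adjusted p = 2.45e-10), and it differed by 1.49 on the deficient diet. Cyp2r1, the vitamin D 25-hydroxylase, had signals of 1.51, 1.52, 1.59 and 1.92 in WT and of 2.46, 2.77, 2.41 and 2.76 in Ttpa-/- arrays. It rose by 0.97 (adjusted p = 1.06e-05) and differed by 0.55 on the deficient diet (adjusted p = 0.00538), below the fold threshold. Tulp1, a photoreceptor protein of the tubby family, rose 2.15-fold (adjusted p = 0.000343), and Mef2a, a transcription factor of muscle and neurons, by 0.81 (adjusted p = 1.29e-05).

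The 10 genes with the largest fall by the same rule were Foxb1, Dmbx1, Ppbp, Six3os1, Pax7, Gata3, Car8, 4930412C18Rik, Dgkk and Nr2e1, and 5 of them encode transcription factors. Foxb1, a forkhead factor of the developing diencephalon and midbrain, had signals of -3.13, -4.00, -2.72 and -3.11 in WT and of -6.78, -5.48, -7.45 and -6.96 in supplemented Ttpa-/- cerebellum. It was above background on all WT arrays and on no Ttpa-/- array, and the WT arrays were at least 3.60-fold higher (adjusted p = 0.000676 by limma). Dmbx1, a homeobox factor of the diencephalon and midbrain, had signals of -2.73, -3.88, -1.65 and -3.32 in WT and of -6.73, -6.99, -5.89 and -5.50 in Ttpa-/- arrays (at least 4.58-fold, adjusted p = 0.000225). Pax7, a paired box factor of the dorsal midbrain, had signals of -3.84, -4.41, -2.83 and -4.03 in WT and of -6.69, -6.68, -7.37 and -6.10 in Ttpa-/- arrays (at least 2.49-fold, adjusted p = 0.00145). In each of these genes WT replicate 3 was the highest of the 8 arrays. That the groups did not overlap was a condition of the rule that picked them.

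Nr2e1, an orphan nuclear receptor of neural stem cells, was at least 3.23-fold higher in WT cerebellum (adjusted p = 0.00109). Gata3, a factor of brainstem neurons and T cells, had signals of -0.86, -1.64, -0.36 and -0.89 in WT and of -2.84, -4.58, -5.18 and -2.80 in Ttpa-/- arrays, a fall of 7.52-fold (SE 0.88, adjusted p = 0.0247) that lost its call in 6 of 18 alternative settings. None of these 5 genes was called in Ttpa-/- mice on the deficient diet: Foxb1 differed by 1.45 there, Dmbx1 by 0.29, Pax7 by 0.46, Gata3 by 0.14 and Nr2e1 by -0.06, and of these only Gata3 was bright enough to be tested (adjusted p = 0.936). The spread within the other cerebellar groups was large. For Foxb1 the deficient WT arrays were at -6.79, -5.63, -3.92 and -7.00, the deficient Ttpa-/- arrays at -5.50, -2.46, -6.41 and -3.15, and the 2-month-old WT arrays at -6.41, -5.76, -4.92 and -3.54. Within the WT slide, where 1.27% of probes were called and 0.816% were lower on the deficient diet, deficient WT mice differed from WT mice on the normal diet by -2.59 for Foxb1 (adjusted p = 0.0208) and by -2.15 for Pax7 (adjusted p = 0.0363).

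**Figure D4:**
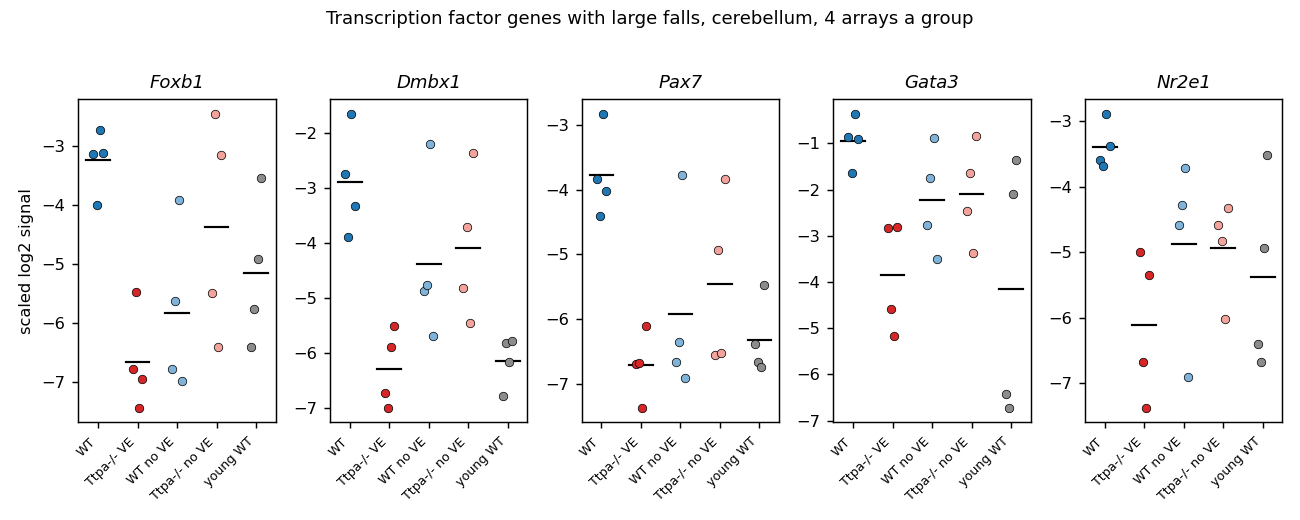
Signals (log2 relative to the array's 75th percentile) of Foxb1, Dmbx1, Pax7, Gata3 and Nr2e1 in the 5 cerebellar groups, with a point for each of 4 arrays and a bar at the mean. The WT arrays on the normal diet lie above all supplemented Ttpa-/- arrays, which was a condition for picking these genes. The deficient-diet groups overlap each other and spread over several log2 units.

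Other genes of like pattern, named after their values were seen, were Tal1, a factor of blood and midbrain neurons (-1.55, adjusted p = 0.00979), Pou4f1, a factor of sensory and midbrain neurons (-2.00, adjusted p = 0.00478), Lmo3, a LIM-only transcription cofactor (-2.20, adjusted p = 0.00245), and Cpne4, a calcium-dependent membrane-binding protein (-2.24, adjusted p = 0.000339). Their differences on the deficient diet were -0.05, 0.21, 0.39 and 0.17. The Six3 antisense transcript Six3os1 fell by 2.99 (adjusted p = 0.0265), lost in 9 of 18 alternative settings, and Six3 itself differed by -1.66 (adjusted p = 0.107). Dgkk, a diacylglycerol kinase on chromosome X, fell 6.78-fold (adjusted p = 0.0115). The cerebellar factors En2 and Barhl1 differed by -0.04 and 0.06.

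The 72 down-regulated bright probes included genes of neurons, picked here after their values were seen. Bdnf, a neurotrophin, had signals of 0.89, 1.22, 0.91 and 1.02 in WT and of 0.36, 0.19, 0.43 and 0.35 in supplemented Ttpa-/- cerebellum, a difference of -0.68 (adjusted p = 0.000683). Nrn1, a surface protein that promotes neurite growth, had signals of 3.62, 3.39, 3.41 and 3.41 in WT and of 2.83, 2.52, 2.67 and 2.66 in Ttpa-/- arrays (-0.79, adjusted p = 1.14e-05). Vgf, a neuropeptide precursor, had signals of 3.11, 3.09, 3.39 and 3.26 in WT and of 2.71, 2.03, 2.01 and 2.52 in Ttpa-/- arrays (-0.90, adjusted p = 0.00128). The groups did not overlap in these 3 genes, and each kept its call without WT replicates 1 and 3. Tle1, a transcriptional corepressor on chromosome 4, also kept it (-1.41, adjusted p = 0.0016).

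Larger falls with a wider spread were found in Htr2c, the serotonin 2C receptor (-1.83, adjusted p = 0.00709), Grm5, a metabotropic glutamate receptor (-1.55, adjusted p = 0.0232), Ngef, a guanine nucleotide exchange factor of neurons (-1.50, adjusted p = 0.00132), and Camkv, a calmodulin-binding kinase-like protein of vesicles (-1.59, adjusted p = 0.0172). Camkv was at 3.46, 2.95, 3.78 and 3.54 in WT and at 2.35, 1.61, 1.19 and 2.20 in supplemented Ttpa-/- arrays. Without WT replicates 1 and 3 the differences were -1.61, -1.31, -1.35 and -1.40 in the same order, of like size with fewer arrays, and none was called. Their deficient-diet differences were 0.18, 0.16, 0.17 and 0.00. The deficient WT arrays were at 2.40, 2.93, 2.85 and 1.57 for Camkv and at 2.07, 2.75, 2.78 and 2.03 for Ngef. In both genes they lay below all WT arrays on the normal diet, while for Htr2c and Grm5 they overlapped them. Of the 72 down-regulated bright probes, 5 were also down-regulated on the deficient diet and 51 had a positive difference there. Of all probes tested on that diet 1.92% were down-regulated, and their median difference was -0.01. Whether the 72 probes differ from all bright probes in this was not tested. Kif5a, a neuronal kinesin, was at 7.34, 7.30, 7.46 and 7.39 in WT and at 6.87, 6.81, 6.56 and 6.83 in Ttpa-/- arrays (-0.61, adjusted p = 3.52e-05), and it differed by -0.58 without those replicates, just under the fold threshold.

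Some down-regulated genes known from bone and plasma cells, also picked after their values were seen, were high on part of the WT arrays. Bglap2, which encodes the bone matrix protein osteocalcin, had signals of 0.34, -2.04, 0.22 and -4.03 in WT and of -6.03, -3.32, -4.36 and -3.63 in supplemented Ttpa-/- arrays, a difference of -2.96 (adjusted p = 0.00222). WT replicates 1 and 3 were high and WT replicate 4 was within the range of the Ttpa-/- arrays. The immunoglobulin transcript BC019489 followed the same order, with 2.47, -1.34, 2.01 and -4.26 in WT and -3.42, -6.72, -5.40 and -3.22 in Ttpa-/- arrays (-4.41, adjusted p = 0.00219). Without WT replicates 1 and 3 the differences were -1.30 (adjusted p = 0.26) and -1.89 (adjusted p = 0.262). Acp5, an osteoclast phosphatase, went from -1.78 (adjusted p = 0.0276) to -0.44, and Col1a1, a collagen of bone and fibroblasts, from -1.05 (adjusted p = 0.0309) to -0.12. Ppbp, a platelet chemokine, was highest on WT replicate 4 instead. Its difference was -3.07 (adjusted p = 0.0142) with all arrays and -3.17 (adjusted p = 0.101) without WT replicates 1 and 3. The part of bone or blood in these samples was not tested.

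The gene lists of vitamin E biology, cell types and stress responses held few changes. A gene with several probes is represented by its brightest probe, and 1.87% of the 15180 tested gene symbols were up-regulated and 2.04% down-regulated by this measure (3.91% in all), with a median difference of -0.04. Of 17 tested genes of vitamin E handling, Ttpa and Lpl were down-regulated and none was up-regulated (median 0.01). Lpl, the lipoprotein lipase that passes lipids and vitamin E from lipoproteins to cells, had signals of -0.72, -0.80, -0.53 and -0.38 in WT and of -0.94, -1.44, -1.47 and -1.31 in supplemented Ttpa-/- cerebellum (-0.68, adjusted p = 0.0101), and differed by -0.65 on the deficient diet. Its call was lost in 2 of 18 alternative settings. A dimmer Lpl probe differed by -0.45 in the supplemented comparison (adjusted p = 0.169 by limma) and was not called. None of 39 antioxidant and glutathione enzymes was called (1 at an unadjusted p of limma under 0.05 with the same fold), and their median difference was -0.05. The smallest p among them was that of Gpx1, the glutathione peroxidase of the cytosol (-0.30, adjusted p = 0.0151, fold under 1.5). None of 13 genes of iron handling and lipid peroxidation was called or passed an unadjusted p with the same fold (median -0.02).

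In the phospholipase A2 family, 1 of 14 genes was up-regulated. This was Pla2g4e, a cytosolic phospholipase, with signals of -2.10, -1.68, -2.04 and -1.49 in WT and of -0.83, -0.32, -0.21 and -0.92 in supplemented Ttpa-/- arrays (1.26, adjusted p = 0.00145). It was lower in Ttpa-/- mice on the deficient diet (-1.47, adjusted p = 0.00028). It was higher in supplemented than in deficient Ttpa-/- cerebellum, which lie on one slide (1.37, adjusted p = 0.00476). Hpgds, a prostaglandin D synthase, was the only one of 17 eicosanoid genes to be called (-0.75, adjusted p = 0.0407), a call lost in 13 of 18 alternative settings.

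Few cell type markers were called. Of 18 Purkinje cell genes, Car8 was down-regulated and the other 17 were not called, with a median of 0.08. Their signals, summed on the linear scale in multiples of the 75th percentile, came to 1111 to 1270 in WT and 1093 to 1512 in supplemented Ttpa-/- arrays. None of 14 granule cell genes (median 0.12), 8 interneuron genes (0.09), 12 genes of astrocytes and Bergmann glia (0.01) or 12 genes of reactive astrocytes (-0.10) was called. The same held for 14 myelin genes (-0.22), 12 endothelial genes (-0.06), 9 choroid plexus genes (-0.23) and 6 red cell genes (0.51), and for 5 forebrain (0.21) and 4 brainstem genes (0.36). At an unadjusted p of limma under 0.05 with the same fold, 1 astrocyte and 1 forebrain gene passed, both lower in Ttpa-/- mice. None of the others passed. Differences ran from -0.91 to 0.28 among astrocyte genes, from -2.15 to 0.44 among forebrain genes and from -1.30 to 0.32 among interneuron genes. The sums of some lists were lower in Ttpa-/- arrays. That of the choroid plexus genes, whose brightest member was Enpp2, was 23.3 to 26.7 in WT and 18.2 to 22.5 in Ttpa-/- arrays, and that of the oligodendrocyte precursor genes was 12.4 to 15.1 and 10.3 to 11.5, in neither of which the groups overlapped. For the myelin genes it was 291 to 336 in WT and 236 to 292 in Ttpa-/- arrays. Lists of other kinds were apart as well. The sums were lower in Ttpa-/- arrays for cholesterol genes (65.4 to 73.6 in WT, 49.2 to 61.5 in Ttpa-/- arrays) and immediate early genes (39.5 to 46.8 and 31.7 to 37.7). The same held for the genes the study names, which include Car8 (41.2 to 47.9 and 17.1 to 20.9). The sum of the phospholipase A2 family was higher in Ttpa-/- arrays (59.4 to 65.8 and 71.4 to 82.5). Sums of lists were not tested. Ttr, a marker in the choroid plexus list, went against the sum of that list but was not called (2.18, adjusted p = 0.266 by limma). Its signals were -3.09, -5.66, -3.29 and -2.63 in WT and -3.98, -1.16, 0.45 and -1.24 in supplemented Ttpa-/- arrays. Col1a1 was the only called one of 12 genes of mural cells and fibroblasts. Xist, the transcript of the inactive X chromosome, differed by 0.02 (adjusted p = 0.958), and 4 genes of the Y chromosome were at background on all 8 arrays. Gpr17, a receptor of oligodendrocyte precursors before myelination, was the only one of 9 precursor genes to be called. It had signals of 1.24, 0.98, 1.62 and 1.47 in WT and of 0.78, -0.24, 0.04 and 0.61 in Ttpa-/- arrays (-1.03, adjusted p = 0.00316), and was higher in Ttpa-/- mice on the deficient diet (0.68, adjusted p = 0.0472). The ependymal gene Spag6 fell by 1.11 (adjusted p = 0.0355), lost in 13 of 18 alternative settings.

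Among immune genes, 3 of 6 MHC class II genes were down-regulated, with a median of -0.83. Cd74, the invariant chain, had signals of 0.75, -0.34, -0.60 and -0.75 in WT and of -1.77, -1.07, -1.72 and -1.16 in supplemented Ttpa-/- arrays (-1.20, adjusted p = 0.00846). WT replicate 1 was the highest array for Cd74, for H2-Aa (-1.09, adjusted p = 0.0248) and for H2-Eb1 (-0.92, adjusted p = 0.0451), and none of the 6 was called without it (Cd74 -0.87, adjusted p = 0.065). Cd74 also differed on the deficient diet, by -1.16 (adjusted p = 0.011). Of 18 genes of disease-associated microglia, Lpl and the chemokine Ccl4 (-0.78, adjusted p = 0.047) were down-regulated, and of 13 genes of homeostatic microglia Fcrls was (-0.73, adjusted p = 0.0315). The call was lost in 13 of 18 alternative settings for Ccl4 and in 8 for Fcrls. No gene was called among 12 complement, 12 MHC class I and 22 interferon-stimulated genes, with the unadjusted p of limma either. Gzmk, a granzyme of T cells, was the only called one of 7 T cell genes and rose by 0.77 (adjusted p = 0.00031, 0.63 on the deficient diet).

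Of 15 immediate early genes, which neurons induce upon activity, 3 were down-regulated and none was up-regulated (median -0.23). Fosl2, an AP-1 subunit, had signals of 0.61, 0.18, -0.02 and 0.44 in WT and of -0.90, -0.87, -0.72 and -0.23 in supplemented Ttpa-/- arrays (-0.98, adjusted p = 0.00361). Npas4, an activity-dependent transcription factor, had signals of -0.10, 0.13, -0.74 and -0.94 in WT and of -1.60, -2.62, -1.38 and -1.37 in Ttpa-/- arrays (-1.33, adjusted p = 0.0051). Nr4a2, an orphan nuclear receptor, was at the threshold (-0.86, adjusted p = 0.0491), and its call was lost in 11 of 18 alternative settings. On the deficient diet, Fosl2 and Npas4 differed by 0.64 and 0.55 and were not called. Within the Ttpa-/- slide, supplemented mice were lower than deficient mice in Fosl2 (-1.17, adjusted p = 0.00579) and in Npas4 (-1.60, adjusted p = 0.00856), in a comparison that shares the supplemented arrays.

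Hsph1, a chaperone of the heat shock protein 110 family, was the 1 of 13 heat shock genes to be called. It was at 3.44, 3.28, 3.50 and 3.21 in WT and at 2.82, 2.77, 2.67 and 2.81 in supplemented Ttpa-/- arrays (-0.59, adjusted p = 0.000971). On the deficient diet it was higher in Ttpa-/- mice (0.67, adjusted p = 0.000276), and deficient WT mice were lower than WT mice on the normal diet (-0.68, adjusted p = 0.00437). The clock gene Per2 (1 of 17 clock genes) fell by 0.89 (adjusted p = 0.0347), a call lost in 10 of 18 alternative settings, and Cox6a2, a muscle-type subunit of cytochrome c oxidase, was the only called one of 83 respiratory chain genes (-0.88, adjusted p = 0.00484). No gene was called among 17 of cholesterol synthesis and uptake (median -0.20), 18 of amyloid processing and clearance (-0.05) or 14 that vary between C57BL/6 stocks (0.04), with the unadjusted p either. Of these 14, however, 5 were down-regulated in Ttpa-/- mice on the deficient diet, against 1.92% of all probes tested there. Within the Ttpa-/- slide, 5 of the 14 were higher in supplemented than in deficient mice, against 0.209% of all probes. The cause was not tested. Of 20 hereditary ataxia genes Ttpa was called.

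Of the genes the study names in connection with vitamin E and ageing, 7 could be tested here. Car8 was down-regulated and Gm3448, a predicted gene, was up-regulated (0.87, adjusted p = 0.0432), a call lost in 13 of 18 alternative settings. Another Gm3448 probe differed by 0.36 (adjusted p = 0.276 by limma) and was not called. Pla2g3, a secreted phospholipase A2, had signals of -2.11, -1.85, -1.72 and -1.30 in WT and of -1.30, -1.40, -1.83 and -2.27 in supplemented Ttpa-/- arrays, so that the groups overlapped throughout (0.05, adjusted p = 0.96). A dimmer Pla2g3 probe differed by 0.46. It was above background on 1 WT and 3 Ttpa-/- arrays, too few for it to be tested. Ide, the insulin-degrading enzyme, was at 1.88, 1.97, 0.97 and 0.96 in WT and at 0.98, 0.93, 0.99 and 0.98 in Ttpa-/- arrays, with 2 WT arrays far above the other 6 (-0.47, adjusted p = 0.13). Gfap, the astrocyte filament protein, differed by -0.30 (adjusted p = 0.3), Tsga10, a testis protein, by -0.39 (adjusted p = 0.234) and Tcp10c, also of testis, by -0.39 (adjusted p = 0.509). Apart from Ide and Gfap, these genes were chosen in that work on arrays of this series and are no independent evidence.

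Side by side with the deficient-diet comparison, in which 923 of 30552 probes (3.02%) were up-regulated and 587 (1.92%) were down-regulated (4.94% together), the values were as follows. Of the 1045 up-regulated probes, 392 were also up-regulated on the deficient diet, which is 37.5% of one list and 42.5% of the other, and 11 were down-regulated. Of the 490 down-regulated probes, 30 were also down-regulated, which is 6.12% of one list and 5.11% of the other, and 16 were up-regulated. The median difference on the deficient diet was 0.56 for the up-regulated and 0.02 for the down-regulated probes. As both comparisons set the same pair of slides against each other, slide and genotype cannot be told apart in the shared part. Whether the share differed between rises and falls was not tested.

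**Figure D5:**
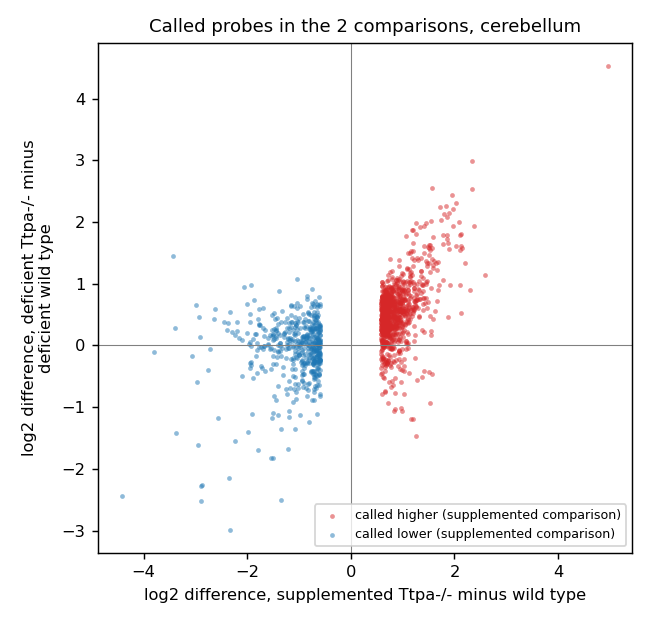
Log2 difference of the called probes in the supplemented comparison (horizontal axis) and in the deficient comparison (vertical axis), with up-regulated probes in red and down-regulated probes in blue. The red points lie mostly above 0 on the vertical axis, with a median of 0.56, and the blue points lie around it, with a median of 0.02.

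In the cortex, the same contrast of supplemented Ttpa-/- and WT mice gave 10 up-regulated (0.0354%) and 16 down-regulated probes (0.0566%) of 28268, or 0.092% in all. Of the probes called in the cerebellum, 4 of those up-regulated and 5 of those down-regulated were called in the cortex in the same direction. The difference between the regions itself passed the test for 233 of the up-regulated and 20 of the down-regulated probes (0.857% and 0.1% of all probes tested for it, by direction, and 0.957% in all). On the deficient diet, the contrast of Ttpa-/- and WT mice in the cortex called more probes, 445 up-regulated and 446 down-regulated of 29061 (1.53% each). Within one slide and one genotype, 64 probes (0.209%) were higher and 41 (0.134%) lower in supplemented than in deficient Ttpa-/- cerebellum, of 30643 or 0.343% in all, in a comparison that shares the supplemented arrays.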

How the data were processed

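Each array was hybridized with Cy3-labelled RNA of the cerebellum or cerebral cortex of 1 mouse, 4 mice in each group, and groups were taken from the sample labels. The deposited intensities are the processed signals of Feature Extraction 10.7.3.1 per the file headers (the submitters' processing notes name 10.1.1.1), background-subtracted and detrended within each array, with probe positions on mm9. A table on the log2 scale, deposited by the authors as well, was used as an alternative. When both were centred by probe, it was within 0.000915 (median) of the signals used here.

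From the intensities, spots with non-uniformity or population outlier flags were removed (95 to 148 an array), repeated spots were averaged, 55589 of 55681 probes were kept, and log2 signals were scaled to the 75th percentile. No probe value was saturated (0 values). limma 3.58.1 in R 4.3.3 was fitted to all 40 arrays with 10 group coefficients. Every adjusted p is limma's, with Benjamini-Hochberg adjustment over the probes well above background on each array of one compared group. Calls needed an adjusted p under 0.05 and a fold over 1.5. The methods name global normalization, the log2 scale and a fold over 1.5, and no test for the arrays. Where one group had no array above background, the fold is a lower bound against the dimmest signals that were above background on the same arrays, or the probe's own if higher. The number of arrays limits the precision, and 4 arrays against 4 allow no exact permutation p below 0.0286. The model was tested on simulated data.

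Genes were named by rule: Ttpa, the 10 largest rises and the 10 largest falls among called symbols whose groups did not overlap, genes the study names, called members of 36 gene lists (599 genes, 8 not on the arrays) or else a list's members of smallest p, and called genes within 10 Mb of Ttpa. Those named outside the rule are said to be so. The members and lists were chosen with earlier results of these data known. Probe sequences were read from the files. Alternatives covered scaling, background, filter, replicate block, weights, samples in the fit, test, unit and each array left out. The authors' other assays were not analysed here.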

Additional observations from a re-analysis of the deposited data

Results flagged for a closer look

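In 113 groups of 4 arrays, 6 held a value far from the other 3 by Dixon's test, which by chance flags about 1 in 20 groups. WT replicate 4 was high for Olfr1173 (-2.21, the others at -3.10 to -3.08) and low for Tap2 (2.25, the others at 2.35 to 2.37). WT replicate 3 was high for Necab1 (-2.10, the others at -2.62 to -2.56) and for Xist (-0.26, the others at -0.75 to -0.71), and WT replicate 1 was low for Klhl32 (2.77, the others at 2.87 to 2.89). Supplemented Ttpa-/- replicate 4 was high for Cox17 (-1.75, the others at -2.45 to -2.34).

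For 11 of the genes named by rule, the difference between supplemented Ttpa-/- and WT mice itself differed between cerebellum and cortex by the interaction test of limma. For 7 of them, those that rose, no cortex array of either group was above background, and for Bex6, Krtap3-3, 1700013N18Rik, Abhd3 and Lyar no WT cerebellar array was either, so that the fitted values below are no measured sizes. For Dmbx1 and Pax7 neither the supplemented Ttpa-/- cerebellum nor the WT cortex had an array above background, and the same holds for their values. Cerebellum exceeded cortex by 2.50 for Bex6 (adjusted p = 7.07e-05), 2.42 for Krtap3-3 (adjusted p = 0.0299), 2.06 for 1700013N18Rik (adjusted p = 0.0265), 2.28 for Abhd3 (adjusted p = 0.000832), 1.92 for Cox17 (adjusted p = 0.00124), 1.71 for Barhl2 (adjusted p = 0.000351) and 2.41 for Lyar (adjusted p = 0.0124). It was -4.20 for Dmbx1 (adjusted p = 0.00501), -3.68 for Pax7 (adjusted p = 0.022), -2.59 for 4930412C18Rik (adjusted p = 0.0304) and -2.04 for Necab1 (adjusted p = 0.027). 4930412C18Rik and Necab1 were above background in both cortex groups, on 3 or 4 arrays of each, and differed by -0.30 there. In the cortex on the deficient diet, however, 4930412C18Rik was down-regulated in Ttpa-/- mice (-1.39, adjusted p = 0.036 by limma). Necab1 was not called there (-0.28, adjusted p = 0.634). The regions lay on different slides, and region and slide cannot be told apart.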

How the results depend on the processing

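The comparison of supplemented Ttpa-/- with WT cerebellum called 1535 probes. The count was 927 with median scaling (598 up, 329 down), 672 with normexp background correction (388 up, 284 down, or 57.7% up), 897 with the methods' t-test after Benjamini-Hochberg adjustment, 2654 with the fold change alone, and 580 over gene symbols (280 up, 300 down, or 48.3% up). Without WT replicates 1 and 3, a choice made after seeing the data, it was 460. A fit of the 20 cerebellar arrays gave 1004 up and 251 down (80% up, against 68.1%). Leaving out each array gave 1012 (without supplemented Ttpa-/- replicate 2) to 1916 (without WT replicate 4). The deficient-diet comparison called 1510 probes, and 760 with normexp, 569 from the compared groups alone, 2415 with the unadjusted p, 345 with the adjusted t-test, 3298 by fold alone and 437 over gene symbols. With each array left out it called 1045 to 2206. Median scaling gave 1955 up and 290 down there (87.1% up, against 61.1%). The difference between the regions called 306 probes, and 85 with median scaling, 1028 with array weights, 1773 with the unadjusted p, 3330 by fold alone and 74 over gene symbols. It called 176 (without supplemented Ttpa-/- cerebellum replicate 2) to 555 (without its replicate 3). The comparison of the diets in Ttpa-/- cerebellum called 105 probes, and 32 with median scaling, 44 with the 20 cerebellar arrays, 860 by fold alone and 65 over gene symbols. It called 0 from the compared groups alone (519 with limma's unadjusted p) and 0 with the adjusted t-test, against 400 with the unadjusted t-test and 525 with limma's unadjusted p. Leaving out deficient Ttpa-/- replicate 1 gave 43 and replicate 2 gave 233. Near Ttpa, 6 probes were called within 10 Mb and 14 within 20 Mb. The cause of these shifts was not tested.

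With the replicate number as a block, the counts were 1579, 1636, 324 and 113 in the order above. Same-numbered arrays of the compared groups did not deviate together (correlations of -0.37 to 0.02, 0 of 4 over 0.1), so the arrays share only a number, and 0 of 4 correlated best with its own number. Of 43 called named genes, 12 kept their call in all 18 alternatives, 25 kept it whatever array was left out and 0 changed direction. The t-test and the 20 cerebellar arrays could not be fitted for the difference between the regions, which spans 4 groups of both regions.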
